A study of Mus musculus with 16 samples.

Results

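A set of 10 genes that encode proteins of the lipid droplet surface or of droplet assembly was followed through 16 sequenced mouse livers. All 10 were found by name among the 23258 rows of the deposited gene table. They are the perilipins Plin2, Plin4 and Plin5, the CIDE genes Cidea, Cideb and Cidec, the patatin-like lipase genes Pnpla2 and Pnpla3, the lipase inhibitor gene G0s2 and the droplet assembly gene Fitm1. The livers came from C57BL/6 mice labelled either as liver-specific miR-33 knockouts or as wild type, fed either a high-fat diet or chow. There were 5 high-fat knockout, 4 high-fat wild-type, 4 chow knockout and 3 chow wild-type libraries. The name given to the table includes Alb-Cre, a Cre driver that acts in hepatocytes. The sources used here do not say how the knockout was made, which alleles the wild-type mice carried, how old the mice were or of which sex, what the diets held or how long they were fed. The labels do not state that each library is a separate animal, so p-values measure the spread between these libraries, which may be technical. The numbers in the sample titles form separate series on each diet, so a diet difference and a difference between these series cannot be told apart.

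Hepatocytes store triglyceride in droplets, each a fat core under a single layer of phospholipid. Perilipins coat that layer and control which lipases reach the fat, and CIDE proteins sit where droplets touch and move fat from the smaller to the larger. Adipose triglyceride lipase, the product of Pnpla2, takes the initial fatty acid off triglyceride, and the G0S2 protein binds and blocks it. In fatty livers of mice, Cidec, Cidea and Plin4 are known as genes driven by PPAR gamma, Pnpla3 as a gene driven by the sterol and carbohydrate regulators SREBP-1c and ChREBP, and Plin2, Plin5, G0s2 and Pnpla2 as genes that respond to PPAR alpha and fasting. The microRNA miR-33 lies in an intron of Srebf2 and represses messages that carry matches to its seed, among them that of the cholesterol exporter Abca1.

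The seed of the deleted microRNA is shown because it decides which messages can carry a canonical site. Its mature strand, from RefSeq on GRCm38.p6, lies on chr15:82198127-82198147 (plus strand), and the capitals mark the seed, bases 2 to 8:
mmu-miR-33-5p: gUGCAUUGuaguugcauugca
A site was searched as CAATGCA, the match to the seed, or as AATGCAA, the match to bases 2 to 7 followed by A. None of the 10 genes held either in its longest annotated 3' UTR, which ran from 27 bases in Fitm1 to 1416 bases in Plin4. Of the 13092 tested genes with a 3' UTR of at least 20 bases, 15.7% held one. The absence of these letters says nothing of sites elsewhere in a message.

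Promoter windows, from 250 bases before to 50 bases after a start site, were available for 9 of the 10 genes, in 11 windows. A PPAR element was searched on both strands as 2 copies of AGGTCA with 1 base between them and up to 2 mismatches, and a sterol element as TCACNCCAC with none. They occurred in 3.86% and 1.24% of 32851 mouse windows of that length. The Plin2 window was the 1 of these 11 with a match, and the stretch is shown because PPAR elements are the best known control of this family. It lies on the minus strand at chr4:86670249-86670308 of GRCm38.p6, with the match in capitals, 225 to 213 bases before the start site. The match has 2 mismatches and reads on the strand opposite to the gene:
Plin2 promoter: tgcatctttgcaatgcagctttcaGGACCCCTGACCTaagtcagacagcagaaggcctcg
A match of letters is a description and not evidence of binding.

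Library totals were 20993930 to 29469645 estimated counts in high-fat knockout, 16149911 to 25823475 in high-fat wild-type, 15888436 to 26821573 in chow knockout and 17502937 to 22902669 in chow wild-type libraries. A ribosomal RNA gene took 0.637% to 14.6% of a library. Levels of miR-33 were not analysed here, and the loss of the microRNA is known from the labels alone. The hepatocyte markers fixed for the check were present in all libraries and summed to 62700 to 94900 CPM (counts scaled to a common library total). In earlier results of these data, high-fat knockout 1 and chow wild type 3 stood apart from the others. With both left out, 5 of the 10 genes passed between diets in knockout and 6 in wild type, and none of the 10 lost or gained a call.

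Per kilobase of exon (FPKM), which allows genes to be compared with each other, the genes fell into 3 tiers. Plin2, Cideb and G0s2 formed the top. Plin2, the constant coat of hepatocyte droplets, had 251 ± 58.6 FPKM (SD, n = 5) in high-fat knockout, 255 ± 23.5 (n = 4) in high-fat wild-type, 260 ± 14.1 (n = 4) in chow knockout and 258 ± 43.6 (n = 3) in chow wild-type livers. Cideb, which also takes part in the lipidation of very low density lipoprotein, had group means of 132 to 158 FPKM. G0s2 stood below Cideb in high-fat wild type, at 109 ± 35.1 FPKM with overlapping ranges, and led in chow wild type, at 288 ± 94.2 FPKM, where its range overlapped that of Plin2. With the longest transcript as the length, Plin2 had 481 FPKM in chow wild type and lay above G0s2. Fitm1 came next, at 38 to 42.7 FPKM in the 4 group means, although its protein is known mainly from skeletal muscle. Its range overlapped that of Cidec in both high-fat groups and that of Plin5 in chow knockout. Pnpla2, Plin5, Cidec, Plin4 and Cidea lay between 5.16 and 33 FPKM by group mean, and Pnpla3 was lowest in all 4 groups.

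**Figure D1:**
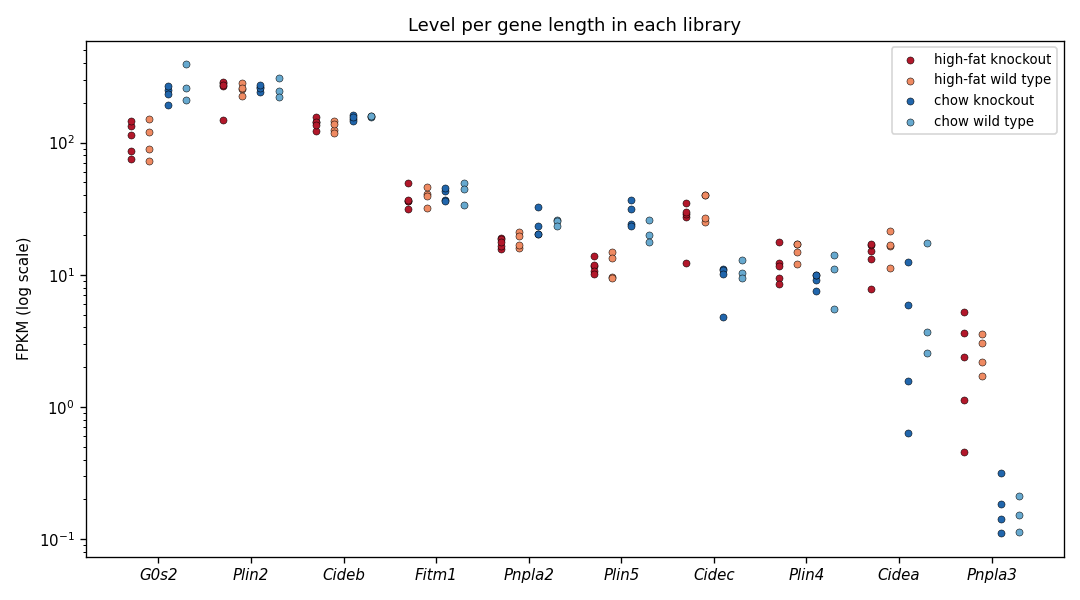
Level per gene length (FPKM, log axis) of each gene in each library, with 1 point per library and colours for the 4 groups. G0s2, Plin2 and Cideb lie at the top, Pnpla3 lies lowest, at 0.111 to 0.316 FPKM in chow knockout livers, and the chow libraries of Cidea are spread most widely.

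On the high-fat diet the droplet genes moved in both directions, as the calls over all genes did. Pnpla3 and Cidec rose in both genotypes, while G0s2, Plin5 and Pnpla2 fell in both, and Cideb fell in wild type. In knockout livers 5 of the 10 passed (2 higher, 3 lower), against 33.6% of all 16830 genes tested (17.4% higher, 16.2% lower). In wild type 6 passed (2 higher, 4 lower), against 29.4% (15.2% higher, 14.2% lower). All of these calls are edgeR quasi-likelihood tests with Benjamini-Hochberg adjustment over all genes and a threshold of 0.05. Pnpla3 passed the filter on low counts only through its high-fat libraries, so it had to differ. Its place in these counts is therefore no result, and Cidec was the only other gene called higher in either genotype. The other 9 genes had values above the filter in every library. The median log2 fold change of those 9 was -0.10 in knockout and -0.11 in wild type, against -0.01 and -0.02 over all genes. Scaled to plain library totals, the median of all genes moved up by 0.33 in knockout and 0.26 in wild type. The share of calls that were higher was then 89.6% in knockout and 87% in wild type, against 51.7% and 51.8%. Under that scaling 3 genes were higher and 2 lower in knockout, and 2 were higher and 2 lower in wild type. Cidec, G0s2 and Plin5 kept direction and call in both genotypes under all 25 alternatives tried.

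**Figure D2:**
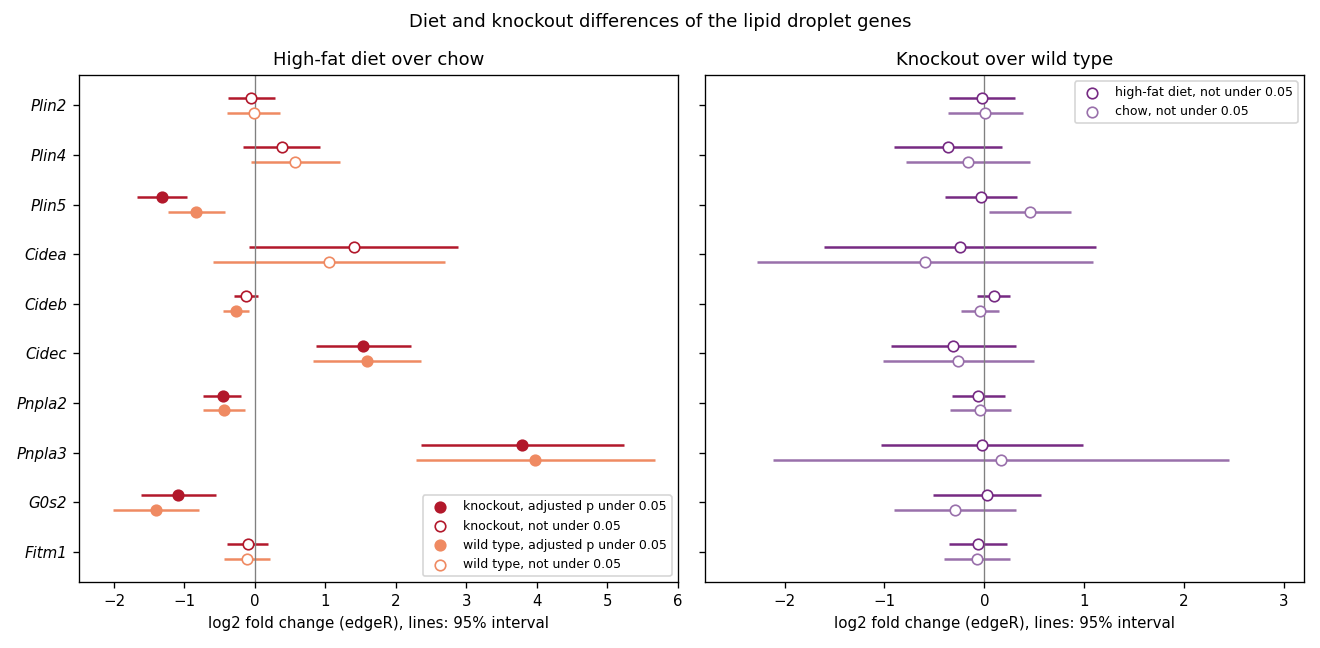
Log2 fold change (edgeR) of each gene with its 95% interval. The left panel shows high-fat diet over chow in knockout and in wild type, the right panel knockout over wild type on each diet, and filled points have an adjusted p under 0.05. Filled points appear only on the left, for Pnpla3 and Cidec above 0 and for Plin5, Pnpla2, G0s2 and, in wild type, Cideb below 0.

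Among the coat proteins, Plin2 held its level and Plin5 fell. Plin2, at chr4:86648386-86670061 of mm10, had 518, 994, 1010, 934 and 952 CPM in high-fat knockout livers and 987, 901, 906 and 786 in high-fat wild type. It had 928, 847, 918 and 966 CPM in chow knockout livers and 864, 1080 and 781 in chow wild type. Apart from the low value of high-fat knockout 1, the 4 groups lay over the same range. The high-fat log2 fold change was -0.05 ± 0.15 (SE) in knockout, with a 95% interval of -0.38 to 0.28, and -0.02 ± 0.17 in wild type, with -0.39 to 0.35 (edgeR adjusted p = 0.819 and 0.944). With plain totals it was 0.28 and 0.25, close to the shift of all genes.

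Plin5, which tethers droplets to mitochondria, lies next to Plin4 on chromosome 17, at chr17:56111601-56117597, and the genes are 1798 bases apart. It had 24.2, 24.8, 22, 28.9 and 21.3 CPM in high-fat knockout livers, against 76.9, 66.0, 50.4 and 48.8 in chow knockout. In wild type it had 20.1, 19.8, 31.2 and 28 CPM on the high-fat diet, against 41.5, 36.7 and 53.8 on chow. The diets did not overlap in either genotype. Plin5 was 2.50-fold lower on the high-fat diet in knockout (log2 -1.32 ± 0.16, edgeR adjusted p = 1.86e-05) and 1.78-fold lower in wild type (log2 -0.83 ± 0.19, adjusted p = 0.00339). The difference between these diet effects, -0.49 ± 0.25 on the log2 scale, did not pass (adjusted p = 0.788).

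Plin4, a perilipin that coats nascent droplets and is most abundant in adipocytes, did not pass in either genotype. It had 54.3, 70.5, 49.0, 103 and 66.9 CPM in high-fat knockout and 70, 98.7, 98.2 and 85.8 in high-fat wild-type livers. On chow it had 53.1, 43.3, 57.7 and 57.6 CPM in knockout and 81.8, 32 and 63.6 in wild type. The groups overlapped, and the 3 chow wild-type libraries were the most uneven. The high-fat log2 fold change was 0.38 ± 0.25 in knockout and 0.57 ± 0.29 in wild type (edgeR adjusted p = 0.269 and 0.153). Without chow wild type 1 the wild-type value was 0.88 (adjusted p = 0.047), and without chow wild type 2 it was 0.28. Without high-fat knockout 4 the knockout value was 0.19, and with plain totals the knockout value was 0.70 (adjusted p = 0.0448).

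Of the CIDE genes, Cidec passed in both genotypes, Cideb in wild type only and Cidea in neither. Cidec, the gene of the fat-specific protein that enlarges droplets, lies at chr6:113424634-113435761 and rose. It had 22.7, 50.5, 53.4, 55.0 and 65.2 CPM in high-fat knockout, against 20.4, 8.95, 20.2 and 19.0 in chow knockout livers. In wild type it had 46.4, 74.8, 73.9 and 49.7 CPM on the high-fat diet, against 24, 19.3 and 17.6 on chow. The diets did not overlap in either genotype, although high-fat knockout 1 lay just above the chow knockout libraries and below the highest chow wild-type one. The rise was 2.90-fold in knockout (log2 1.54 ± 0.31, edgeR adjusted p = 0.00187) and 3.01-fold in wild type (log2 1.59 ± 0.35, adjusted p = 0.00406).

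Cideb, at chr14:55754050-55758459, is the CIDE gene of normal hepatocytes. It had 181, 215, 234, 213 and 205 CPM in high-fat knockout and 216, 185, 206 and 177 in high-fat wild-type livers. On chow it had 226, 218, 241 and 233 CPM in knockout and 232, 238 and 237 in wild type. The diets overlapped in knockout and not in wild type. Cideb fell in wild type, where the log2 difference was -0.27 ± 0.09 (edgeR adjusted p = 0.0279), and had -0.13 ± 0.08 in knockout (adjusted p = 0.205). The wild-type call was lost with plain totals (log2 -0.01, adjusted p = 0.969), without a filter (0.0574) and with only the groups compared (0.0517). It was also lost without high-fat wild type 2 (0.0765) or 4 (0.0912) and without chow wild type 1 (0.0542), 2 (0.0777) or 3 (0.0705). Of the 1488 exon bases of Cideb, 1136 overlap Nop9 on the other strand, and the sources used here do not say whether the counting used strand. Reads of the pair may therefore be shared. Nop9 had 25.7 to 32.1 CPM in high-fat knockout, 23.2 to 29.7 in high-fat wild type, 29.7 to 34.1 in chow knockout and 29.4 to 34 in chow wild type. Its log2 fold change on the high-fat diet in wild type was -0.24 ± 0.10 (adjusted p = 0.0727).

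Cidea, a CIDE gene of brown fat that fatty livers are known to switch on, had the widest spread of the 10 genes within the chow groups. It lies on chromosome 18 at 67343564 to 67367795. It had 14.6, 16.9, 18.6, 8.72 and 18.9 CPM in high-fat knockout and 18.3, 18.8, 23.9 and 12.5 in high-fat wild-type livers. On chow it had 6.63, 1.77, 0.708 and 13.9 CPM in knockout, a 19.6-fold range, and 19.3, 2.85 and 4.14 in wild type. A chow library of each genotype therefore reached the high-fat levels, and the diets overlapped. The sum of the adipocyte markers analysed (Adipoq, at most 0.212 CPM in any library, and Cfd) was highest in the same chow libraries. It rested almost wholly on Cfd, which reached 6.42 CPM in chow knockout and 5.93 CPM in chow wild type. Adipoq, near the floor throughout, did not share this match. Its highest value, 0.212 CPM, was in a chow knockout library other than chow knockout 4, and the sum in chow wild type 1 was that of Cfd alone. The sum was 6.47 CPM in chow knockout 4, against 1.14 to 2.10 in the other 3 chow knockout libraries. In chow wild type 1 it was 5.93 CPM, against 1.28 and 3.95 in the other 2. The lowest high-fat libraries for Cidea, knockout 4 and wild type 4, likewise had the lowest sums of their groups, 0.314 and 1.96 CPM. The highest high-fat sums, 5.54 CPM in knockout 1 and 6.18 in wild type 2, were not in the libraries highest in Cidea. The part of these markers in the Cidea values was not tested. The high-fat log2 fold change was 1.40 ± 0.68 in knockout, with a 95% interval of -0.08 to 2.88, and 1.05 ± 0.75 in wild type, with -0.60 to 2.69 (edgeR adjusted p = 0.133 and 0.326). The knockout value passed with limma voom (log2 2.05, adjusted p = 0.0183) and without chow knockout 4 (log2 2.33, adjusted p = 0.0268). The wild-type value was 2.39 without chow wild type 1 and 0.64 without chow wild type 2.

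**Figure D3:**
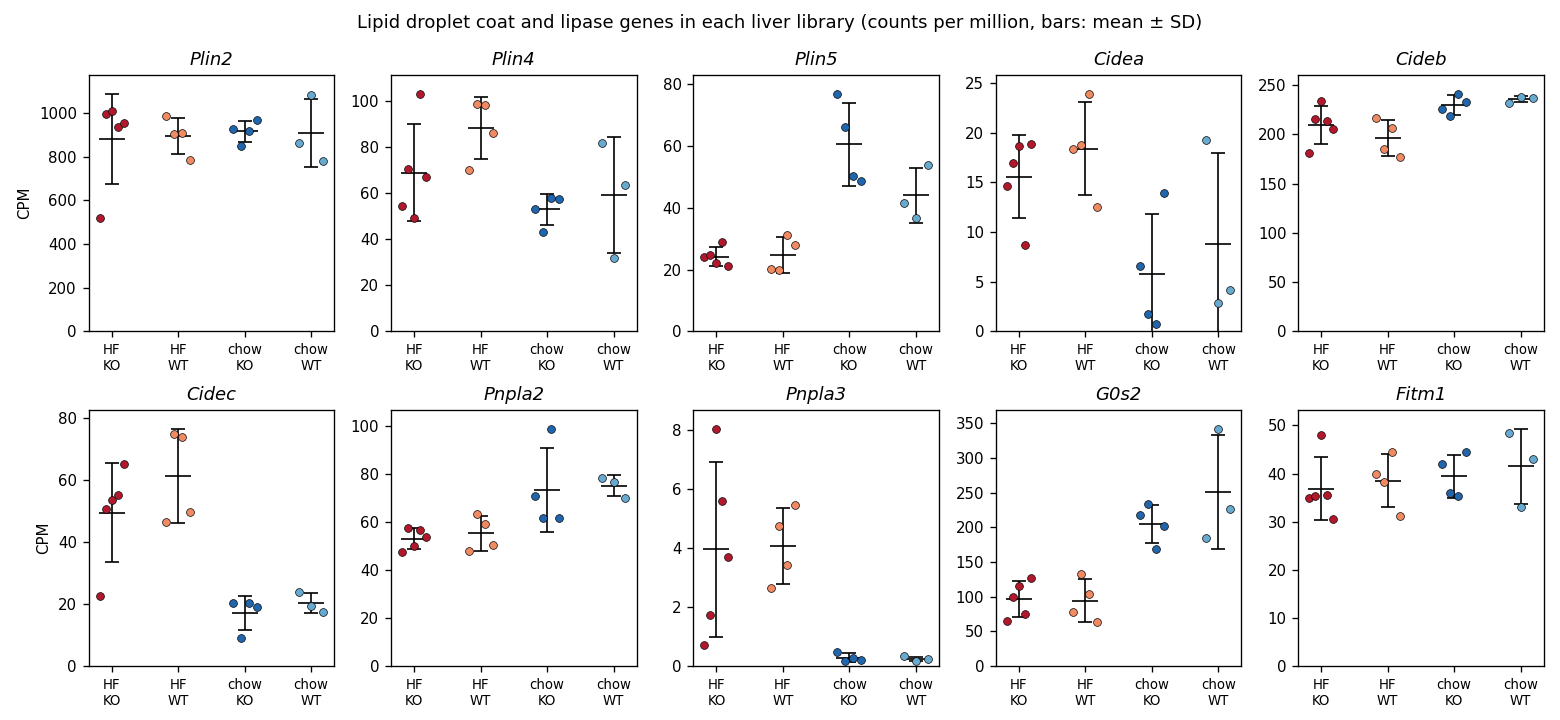
CPM of the 10 genes in each library, with 1 point per library and bars for the mean ± SD of each group; the part of a bar below 0 is not drawn. HF is the high-fat diet, KO knockout and WT wild type. Plin5, G0s2 and Pnpla2 lie lower and Cidec and Pnpla3 higher in the high-fat libraries, while Plin2 lies at 518 to 1080 CPM throughout.

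Of the lipases, Pnpla2 fell by a modest amount. The gene lies at chr7:141455198-141460744 and had 47.5, 57.7, 49.9, 56.7 and 53.8 CPM in high-fat knockout, against 71.0, 61.7, 98.9 and 61.6 in chow knockout livers. In wild type it had 47.9, 63.2, 59.3 and 50.6 CPM on the high-fat diet, against 78.4, 76.8 and 70.1 on chow. The diets did not overlap in either genotype, with chow knockout 3 far above the rest. Pnpla2 was 1.38-fold lower in knockout (log2 -0.46 ± 0.12, edgeR adjusted p = 0.00709) and 1.36-fold lower in wild type (log2 -0.44 ± 0.14, adjusted p = 0.0223). Plain totals took away both calls (log2 -0.14 and -0.18, adjusted p = 0.399 and 0.38). Without chow knockout 3 the knockout value was -0.29 (adjusted p = 0.0312). The wild-type call was lost without high-fat wild type 1 (0.0617) or 4 (0.0624) and without chow wild type 1 (0.0691) or 2 (0.0676).

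Pnpla3, whose human counterpart carries a common variant linked to fatty liver, was near the detection limit on chow and higher in the high-fat libraries, of which high-fat knockout 1 was close to the chow level. It lies at chr15:84167816-84189513. It had 0.702, 1.74, 8.04, 5.58 and 3.70 CPM in high-fat knockout livers, from 15, 51, 265, 160 and 112 counts, against 0.489, 0.172, 0.283 and 0.221 CPM in chow knockout, from 9, 4, 4 and 5 counts. In wild type it had 2.64, 4.73, 3.41 and 5.47 CPM on the high-fat diet, against 0.329, 0.175 and 0.237 on chow, from 7, 3 and 4 counts. The diets did not overlap, and the 5 high-fat knockout libraries covered an 11.5-fold range. Since 9 of 9 high-fat and 0 of 7 chow libraries lay above the filter, Pnpla3 was tested only through the diet on which it is high, and its fold is given as a description. The fitted value was 13.9-fold in knockout (log2 3.79 ± 0.66) and 15.8-fold in wild type (log2 3.98 ± 0.78). The low chow counts leave its size imprecise, with 95% intervals of 2.36 to 5.23 and 2.28 to 5.68 on the log2 scale.

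G0s2, whose product inhibits the lipase encoded by Pnpla2, fell in both genotypes. The gene lies at chr1:193272161-193273218. It had 65.2, 100, 116, 74.9 and 127 CPM in high-fat knockout, against 217, 233, 169 and 202 in chow knockout livers. In wild type it had 77.5, 133, 104 and 63.6 CPM on the high-fat diet, against 184, 342 and 227 on chow. The diets did not overlap in either genotype, and chow wild type 2 was the highest library. G0s2 was 2.12-fold lower in knockout (log2 -1.09 ± 0.25, edgeR adjusted p = 0.00403) and 2.65-fold lower in wild type (log2 -1.41 ± 0.28, adjusted p = 0.00198). Per length, the ratio of G0s2 to Pnpla2 was 6.33 ± 1.74 (SD, n = 5) in high-fat knockout, 5.84 ± 1.21 (n = 4) in high-fat wild type, 10.2 ± 3.07 (n = 4) in chow knockout and 11.6 ± 3.68 (n = 3) in chow wild type. In wild type the diets did not overlap, while chow knockout 3, at 5.92, lay within the high-fat knockout range of 4.58 to 8.19.

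The ratio of Cidec to Cideb per length separated the diets in all libraries. It was 0.187 ± 0.0562 (n = 5) in high-fat knockout, 0.252 ± 0.0677 (n = 4) in high-fat wild type, 0.0594 ± 0.0179 (n = 4) in chow knockout and 0.0692 ± 0.0123 (n = 3) in chow wild type. The lowest high-fat library, high-fat knockout 1, had 0.100, and the highest chow library had 0.083. These ratios are values without a test.

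**Figure D4:**
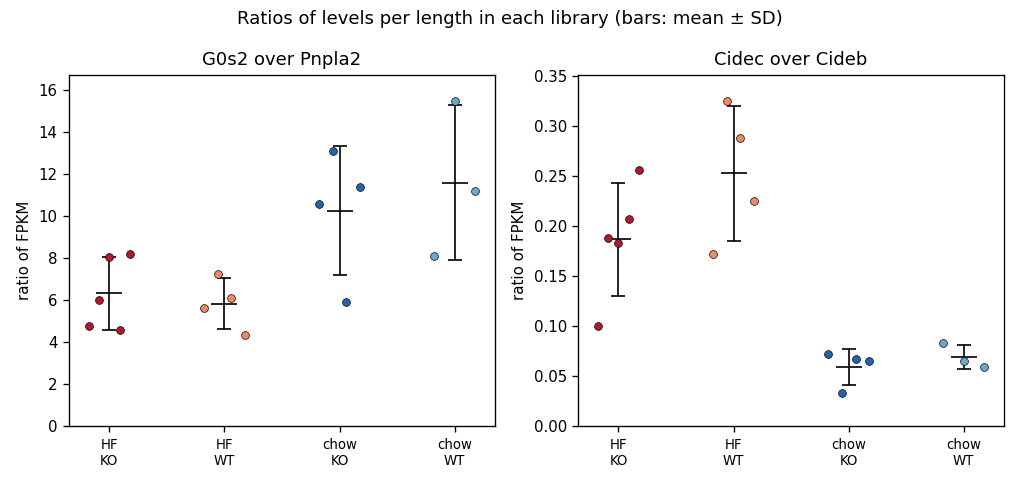
Ratio of FPKM in each library for G0s2 over Pnpla2 and for Cidec over Cideb, with 1 point per library and bars for the mean ± SD of each group. High-fat libraries lie at 4.36 to 8.19 for the inhibitor over its lipase, a range that also holds chow knockout 3 (5.92) and chow wild type 1 (8.12), and at 0.100 to 0.325 for Cidec over Cideb, above all chow libraries.

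Fitm1, the gene of an endoplasmic reticulum protein that partitions triglyceride into droplets, lies at chr14:55575617-55576955. It had 35, 35.3, 47.9, 35.5 and 30.6 CPM in high-fat knockout and 39.9, 38.3, 44.5 and 31.2 in high-fat wild-type livers. On chow it had 42.0, 36, 35.4 and 44.4 CPM in knockout and 48.4, 33 and 43.1 in wild type. All groups overlapped. The high-fat log2 fold change was -0.10 ± 0.13 in knockout (95% interval -0.39 to 0.19) and -0.11 ± 0.15 in wild type (-0.44 to 0.22), and it did not pass (edgeR adjusted p = 0.606 and 0.625). Plain totals turned both to the other side of 0, at 0.23 and 0.14. Skeletal muscle markers, of which 5 of 6 were analysed, summed to at most 0.626 CPM in every library but chow knockout 2, which had 5.30 CPM, while Fitm1 was at 36 CPM there.

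None of the 10 genes passed between knockout and wild type. On the high-fat diet 0 of 10 passed against 0.00594% of all genes, and on chow 0 of 10 against 0.00594%. For the mean of both diets it was 0 of 10 against 0.0178%, and for the difference between diets 0 of 10 against 0.00%. DESeq2 and limma voom also called 0 in each. At an unadjusted p under 0.05 there was no gene on the high-fat diet, against 3.81% of all genes. On chow there was 1, Plin5, against 5.95%. Plin5 had 60.5 ± 13.4 CPM (SD, n = 4) in chow knockout, against 44.0 ± 8.87 (n = 3) in chow wild type, with overlapping libraries (log2 0.46 ± 0.19, unadjusted p = 0.026, edgeR adjusted p = 0.812). On the high-fat diet it had 24.2 ± 2.99 CPM (n = 5) in knockout and 24.8 ± 5.73 (n = 4) in wild type (log2 -0.03 ± 0.17).

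The intervals show what knockout differences remain possible. They were narrow for Cideb (log2 0.10, 95% interval -0.07 to 0.26 on the high-fat diet, and -0.04, from -0.23 to 0.15 on chow), for Pnpla2 (-0.06, from -0.32 to 0.21, and -0.04, from -0.34 to 0.27) and for Fitm1 (-0.06, from -0.35 to 0.23, and -0.07, from -0.40 to 0.26). Plin2 had -0.02 (from -0.35 to 0.31) and 0.01 (from -0.36 to 0.39). They were wider for G0s2 (0.03, from -0.51 to 0.57, and -0.29, from -0.90 to 0.32), Plin4 (-0.36, from -0.90 to 0.18, and -0.16, from -0.78 to 0.46) and Cidec (-0.31, from -0.93 to 0.32, and -0.26, from -1.01 to 0.50). For Cidea (-0.24, from -1.61 to 1.12, and -0.59, from -2.28 to 1.09) and Pnpla3 (-0.02, from -1.03 to 0.99, and 0.17, from -2.12 to 2.45) a change of a full log2 unit in either direction lay inside, or nearly inside, on each diet. Plin5 had -0.03 (from -0.39 to 0.33) and 0.46 (from 0.05 to 0.87), and the chow interval, which is not adjusted for the number of genes tested, left out 0. All 10 adjusted p on the high-fat diet were 1.00 in the edgeR test, and those on chow ran from 0.812 to 0.997.

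Part of the variation that the genes shared within groups rested on high-fat knockout 1. As a description over 16 libraries, which also share depth and scaling, the 45 pairs of genes had a median correlation of 0.22 between deviations of log2 CPM from the group mean. Of them 7 were above 0.5 and 11 below 0. Over the 15 libraries without high-fat knockout 1 the median was 0.08, with 4 pairs above 0.5 and 13 below 0. Plin2 and Cideb had the highest, 0.75, followed by Plin2 and Cidec at 0.68 and Cidec and Pnpla3 at 0.67. High-fat knockout 1 was low in Plin2, Cidec, G0s2 and Pnpla3, and without it the 3 values were 0.59, 0.36 and 0.42. That library also had the lowest hepatocyte marker sum of all 16, 62700 CPM. Its Kupffer cell sum was 208 CPM, against 92.4 to 117 CPM in the rest of its group. High-fat wild type 2 had similar sums, 65500 and 204 CPM. In it Plin2 was at 901, Cidec at 74.8, G0s2 at 133 and Pnpla3 at 4.73 CPM. The part of these sums in the values was not tested. Plin2 and Pnpla3, at 0.56 with high-fat knockout 1, were at 0.03 without it. Cidec and Pnpla2 stayed at 0.59, and Cidea and Fitm1 at 0.61. Cidea and Pnpla2 were lowest with that library, at -0.39, and Plin4 and G0s2 without it, at -0.50.

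**Figure D5:**
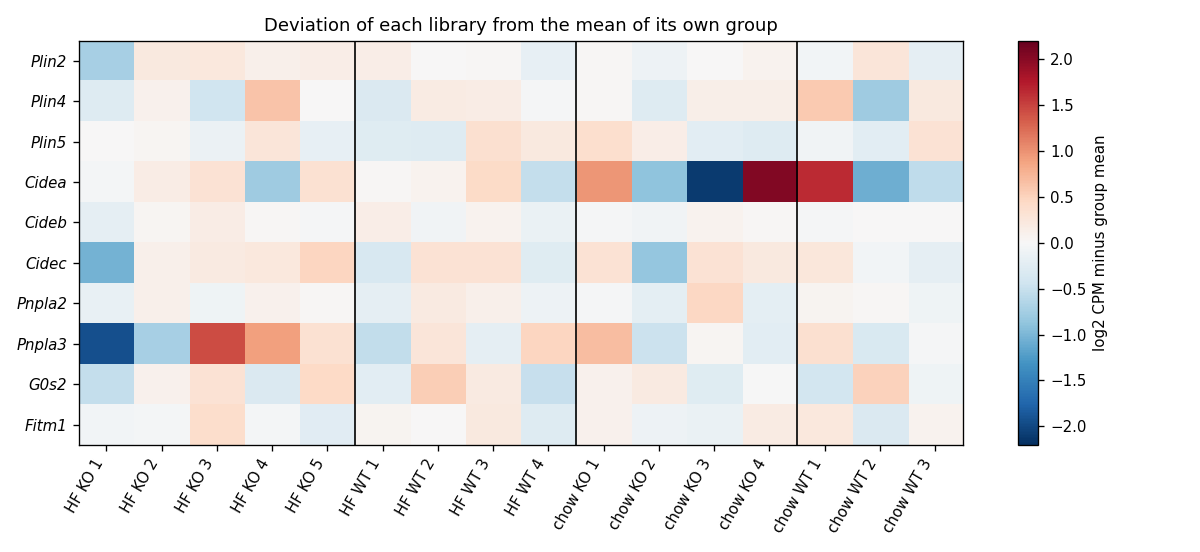
Deviation of log2 CPM of each gene in each library from the mean of its own group, with libraries in columns (HF is high-fat diet, KO knockout, WT wild type), genes in rows and lines between groups. High-fat knockout 1 is low in Pnpla3 (-1.94), Cidec (-1.04), Plin2 (-0.73) and G0s2 (-0.52), and Cidea deviates most in the chow libraries.

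Across all 16 libraries, 11593 named genes with a mean of at least 1 CPM were ranked by Pearson correlation of log2 CPM with each of the 10. For Pnpla3 the nearest was Acaca, the gene of acetyl-CoA carboxylase, the committed enzyme of fatty acid synthesis, at 0.979. For Cidec it was Tmem45b at 0.960 and for G0s2 Uhrf1bp1l at 0.946. Pnpla2 was nearest Mprip at 0.909, Plin2 nearest the fatty acid elongase gene Elovl5 at 0.908 and Cideb nearest Mettl7b, a droplet-targeted protein, at 0.897. Plin4 was nearest Bri3 at 0.891, Cidea nearest Tbc1d5 at 0.870 and Fitm1 nearest Itm2b at 0.809. For genes that differ by diet these values hold the diet difference as well.

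Other droplet coat and assembly genes also moved both ways. Over all genes 17.4% were higher and 16.2% lower in knockout, and 15.2% were higher and 14.2% lower in wild type. Of 14 tested, from a list of 15, 4 were higher and 5 lower on the high-fat diet in knockout, and 3 were higher and 5 lower in wild type, with medians of -0.04 and -0.03. Under plain totals these splits became 7 higher and 1 lower, and 5 higher and 1 lower. Plin3, the widely expressed perilipin, rose to 78.8 ± 13.8 CPM in high-fat knockout (n = 5), against 39.0 ± 5.47 in chow knockout livers (n = 4), and to 82.3 ± 6.77 in high-fat wild type (n = 4), against 45.0 ± 8.60 in chow wild type (n = 3). Its log2 fold changes were 1.02 ± 0.13 and 0.87 ± 0.15 (edgeR adjusted p = 2.41e-05 and 0.000407). Mettl7b fell in both (log2 -0.47 ± 0.09 in knockout and -0.58 ± 0.10 in wild type), and in knockout its call was lost with plain totals (adjusted p = 0.264). Hsd17b11, a droplet dehydrogenase, fell in both (log2 -0.57 ± 0.09 and -0.38 ± 0.11), with the wild-type call lost under plain totals (log2 -0.11, adjusted p = 0.466) and without chow wild type 2 (log2 -0.31, adjusted p = 0.0701). The related Hsd17b13 rose in both (log2 0.58 ± 0.12 and 0.59 ± 0.14).

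Of 13 other lipases and cofactors tested, from a list of 14, 2 were higher and 5 lower in knockout and 0 were higher and 5 lower in wild type, with medians of -0.23 and -0.38, against 33.6% and 29.4% of all genes in either direction. Under plain totals 5 were higher and 1 lower in knockout, and 2 were higher and 3 lower in wild type. Mgll, which cleaves monoglyceride, had 277 ± 57.9 CPM in high-fat knockout, against 507 ± 50.1 in chow knockout livers, and 314 ± 29.3 in high-fat wild type, against 511 ± 77.0 in chow wild type. Its log2 fold changes were -0.87 ± 0.14 and -0.70 ± 0.16 (edgeR adjusted p = 0.000116 and 0.00250). Lipc, hepatic lipase, fell, with log2 values of -0.58 ± 0.10 in knockout and -0.59 ± 0.12 in wild type, and Pnpla7, a lysophospholipase, fell too, with -0.59 ± 0.11 and -0.70 ± 0.13. With plain totals the calls of Lipc were lost in both genotypes (adjusted p = 0.0735 and 0.0568), and that of Pnpla7 in knockout (0.06).

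Among 13 regulators of these genes, 2 were higher and 4 lower in each genotype, with medians of -0.13 in knockout and -0.14 in wild type, again against 33.6% and 29.4% of all genes in either direction. Under plain totals 4 were higher and 2 lower in knockout and 3 were higher and 2 lower in wild type. Srebf1, which encodes SREBP-1c, rose to 181 ± 28.7 CPM in high-fat knockout, against 33.6 ± 11.7 in chow knockout livers, and to 173 ± 21.8 in high-fat wild type, against 45.9 ± 16.1 in chow wild type. Its log2 fold changes were 2.43 ± 0.25 and 1.92 ± 0.28 (edgeR adjusted p = 7.71e-06 and 0.000185). Creb3l3, a fasting-responsive activator, fell (log2 -0.58 ± 0.06 and -0.73 ± 0.07), as did Rxra, the partner of PPARs (log2 -0.59 ± 0.08 and -0.56 ± 0.09).

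Between genotypes 0 of the 40 tested members of these 3 lists passed in any of the 4 comparisons by edgeR, DESeq2 or limma voom. At an unadjusted p under 0.05 there was 1 on the high-fat diet, 2 on chow, 2 for the mean and 0 for the difference. Of all genes 3.81%, 5.95%, 3.48% and 6.6% lay under it, in the same order. The smallest p of each list on the high-fat diet were those of Pparg (log2 -0.40 ± 0.19, 15.1 CPM in knockout and 19.9 in wild type), Lipe (0.36 ± 0.21) and Mettl7b (0.11 ± 0.09), each with an edgeR adjusted p of 1.00. On chow they were those of Hilpda, which encodes another inhibitor of adipose triglyceride lipase (log2 -0.72 ± 0.27, 1.83 CPM in knockout and 2.99 in wild type, adjusted p = 0.773), Hsd17b11 (0.22 ± 0.11, adjusted p = 0.845) and Srebf1 (-0.45 ± 0.27, adjusted p = 0.897). For the mean of both diets they were those of Hilpda (-0.48 ± 0.17), Ppargc1b (0.27 ± 0.14) and Hsd17b11 (0.13 ± 0.07). For the difference between diets they were those of Ces3b (1.02 ± 0.53), Creb3l3 (0.15 ± 0.10) and Hsd17b11 (-0.19 ± 0.14).

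Markers of cell types moved with diet beside these results. In bulk liver, fewer cells of a type and less RNA per cell cannot be told apart. Summed over 8 hepatocyte markers, levels were 62700 to 82300 CPM in high-fat knockout and 65500 to 81600 in high-fat wild type, against 86100 to 94900 in chow knockout and 85600 to 93300 in chow wild type. Of the 8, 4 were lower in knockout and 6 in wild type, against 16.2% and 14.2% of all genes. Under plain totals 1 was higher and 3 lower in knockout, and 0 were higher and 3 lower in wild type. All 6 markers of lipid-associated macrophages were higher on the high-fat diet in both genotypes, with sums of 148 to 230 CPM in high-fat knockout and 169 to 351 in high-fat wild type, against 41.7 to 54.6 in chow knockout and 38.9 to 52.1 in chow wild type. Gpnmb, Trem2 and Mmp12 had chow group means of 0.233 to 0.403 CPM, below the filter level of 0.424 CPM. They passed that filter mainly through high-fat libraries, so their calls are a description, as for Pnpla3. Cd9, Spp1 and Lpl lay above it in every library. Of all genes 17.4% were higher in knockout and 15.2% in wild type, and counts of 0 or 1 marker lie near those shares. Of 5 stellate cell markers 3 were higher in knockout and 4 in wild type, and of 6 Kupffer cell markers 1 and 3. Sinusoidal endothelial markers (5) had 2 lower in knockout and 2 higher in wild type, cholangiocyte markers (4) had 1 higher in each, neutrophil markers (4) had 1 and 3 higher, and erythroid markers (4) had 0 and 3 higher. The neutrophil markers had chow wild-type means of at most 0.332 CPM, below the filter level, so their wild-type calls are a description too. Between genotypes edgeR called 0 of 44 markers. With an unadjusted p under 0.05 there were 8 on the high-fat diet, 6 on chow, 2 for the mean and 9 for the difference. Of all genes 3.81%, 5.95%, 3.48% and 6.6% lay under it, in the same order. DESeq2 called 1, Stab2 in the difference (adjusted p = 0.0448), and limma voom 0. The part of these shifts in the droplet gene differences was not tested. Fat tissue, which expresses Cidec, Cidea, Plin4, G0s2 and Pnpla2 strongly, was followed by Adipoq and Cfd, the 2 of 6 adipocyte markers analysed here. Adipoq was at 0.212 CPM or less in all libraries, and the sum of both was 0.314 to 5.54 CPM in high-fat knockout and 1.96 to 6.18 in high-fat wild type, against 1.14 to 6.47 in chow knockout and 1.28 to 5.93 in chow wild type.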

How the data were processed

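Livers were snap frozen, ribosomal RNA was removed (Ribo-Zero), reads were trimmed for quality, TopHat2 aligned them and Cuffdiff gave abundances, per the labels' protocols. The submitters' processing notes name the build mm10. The sources used here give neither tool versions nor the strand setting. The labels' protocols name a small RNA library kit and a number of cycles below the stated read length, and which applies to these libraries is unresolved. The deposited table, whose name includes genecounts and FPKM, was taken to hold estimated counts per gene, not scaled to depth or length. Of its values 32.81% to 37.92% were whole numbers in a library. The sources used here do not say how they were made, and the CPM and FPKM given here rest on that reading. All sample columns were used.

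Estimated counts were rounded. Genes were kept by filterByExpr (minimum count 10) of edgeR 4.0.16, which left 16830, and scaled by TMM. The robust quasi-likelihood fit, in R 4.3.3, had 4 group means over all libraries and 12 residual degrees of freedom. Two-sided p-values were adjusted by Benjamini-Hochberg over the genes tested in a comparison. Standard errors were the log2 fold change over the square root of F, and 95% intervals used a t distribution. CPM used TMM-scaled totals. FPKM divided them by the exon-union length of GENCODE M21 on GRCm38. Alternatives were DESeq2 1.42.0, limma 3.58.1 (voom), other size factors, plain totals, other filters, only the groups compared, no ribosomal RNA gene and libraries left out. The fit was checked on simulated counts.

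The 10 genes were taken by name. The limits of 8 matched GENCODE M21, allowing for an end 1 base later in the table. The 10 genes, 3 context lists, marker lists and tests were chosen with earlier results of these data known, and give no independent support. Named in each comparison were all 10 genes, up to 3 members of each context list that passed, by smallest p, or the 1 with the smallest p where none passed, and the gene nearest each of the 10, which for Plin5 is not reported here. Pairs of libraries with identical counts numbered 0.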

Additional observations from a re-analysis of the deposited data

Results flagged for a closer look

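Within-group spread was screened in 30 groups of 4 or more libraries (the 10 genes in the 3 groups large enough), by the gap of the highest or lowest library to its neighbour over the whole range, against Dixon's critical value at the 95% level. About 1 in 20 such groups stands out by chance, and 3 did. Plin2 in high-fat knockout 1 was low, at 518 CPM, against 934 to 1010 CPM in the other 4 libraries. Cidec in chow knockout 2 was low, at 8.95 CPM, against 19.0 to 20.4 CPM in the other 3. Fitm1 in high-fat knockout 3 was high, at 47.9 CPM, against 30.6 to 35.5 CPM in the other 4. None of the 10 genes had a knockout effect that differed between the diets at an adjusted p under 0.05 in edgeR. At an unadjusted p under 0.05 there were 0, against 6.6% of all genes. DESeq2 and limma voom also called 0.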

How the results depend on the processing

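Under 25 alternatives, 1364 values of the 10 genes kept their direction and their side of the threshold, 14 lost a call, 4 gained one and 96 changed sign, none of them called in the edgeR fit. The genes called between diets numbered 5 to 6 in knockout and 4 to 6 in wild type, and 0 between genotypes throughout. The lost and gained calls are those given with the genes. The mean and the difference need all groups, so a fit of only the groups compared gave them no value. In such a fit on chow Pnpla3 missed the filter, and DESeq2 gave Pnpla3 no adjusted p in the difference. Chosen after seeing the data, the same alternatives were run on the 3 context lists: 7 to 9 coat genes, 4 to 9 lipases and 5 to 7 regulators passed in knockout, and 6 to 9, 5 to 6 and 5 to 6 in wild type. The causes of the changes were not tested.

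Sign changes with plain totals, as log2 values, were 0.283 for Plin2, 0.198 for Cideb and 0.228 for Fitm1 in high-fat against chow knockout, and 0.249 for Plin2 and 0.138 for Fitm1 in wild type. In knockout against wild type they were -0.05 for Plin2 on chow and -0.00906 for Cideb over both diets, and in the difference between diets 0.0333 for Plin2, 0.0288 for Cidec and 0.04 for Pnpla2. With limma voom they were 0.00198 for Plin5 on the high-fat diet, -0.106 for Pnpla3 over both diets, and 0.011 for Cidec, 0.0209 for Pnpla2 and -0.00607 for Fitm1 in the difference. With a filter of at least 1 CPM in at least 5 libraries, Plin2 had 0.00129 in high-fat against chow wild type. With high-fat knockout 1 and chow wild type 3 both left out, Plin2 had 0.123 on the high-fat diet, -0.0902 on chow, 0.0162 over both, 0.213 in the difference and 0.111 in high-fat against chow knockout. Pnpla3 then had 0.24 on the high-fat diet and 0.118 in the difference, where Cidec had 0.231 and Pnpla2 0.0709.

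Leaving out 1 library at a time, values that crossed 0 ranged as follows. Between genotypes on the high-fat diet the range was -0.0785 to 0.122 for Plin2, -0.451 to 0.239 for Pnpla3, -0.124 to 0.102 for Plin5, -0.117 to 0.241 for G0s2, -0.121 to 0.0136 for Pnpla2 and -0.175 to 0.0154 for Fitm1. On chow it was -0.086 to 0.153 for Plin2, -0.202 to 0.453 for Pnpla3, -0.215 to 0.0375 for Pnpla2, -0.46 to 0.147 for Plin4, -1.53 to 0.755 for Cidea and -0.213 to 0.0524 for Fitm1. Over both diets it was -0.0535 to 0.0661 for Plin2, -0.141 to 0.218 for Pnpla3, -0.887 to 0.256 for Cidea and -0.22 to 0.016 for G0s2. In the difference it was -0.174 to 0.114 for Plin2, -0.272 to 0.135 for Cidec, -0.0956 to 0.157 for Pnpla2, -0.619 to 0.184 for Pnpla3, -0.114 to 0.151 for Fitm1, -0.998 to 1.29 for Cidea and -0.505 to 0.101 for Plin4. Between diets it was -0.106 to 0.109 for Plin2 in knockout, -0.117 to 0.122 for Plin2 in wild type and -0.249 to 0.0158 for Fitm1 in wild type.

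Over all genes, edgeR called 1 between genotypes on the high-fat diet, against 8 by DESeq2, 3 with plain totals, 3 with no filter, 2 by limma voom, 4 with only the groups compared and 1 to 4 with 1 library left out. On chow it called 1, against 2 by DESeq2, 0 by limma voom, 0 with only the groups compared and 0 to 3 with 1 library left out. Over both diets it called 3, against 5 by DESeq2, 1 by limma voom and 2 to 5 with 1 library left out. In the difference it called 0, against 13 by DESeq2 and 0 to 4 with 1 library left out. With the longest transcript as the length, Plin2 had 474 FPKM in high-fat and 481 in chow wild type, Cideb 162 and 195, and Pnpla2 21 and 28.6.

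No paired analysis was possible because the titles give the groups no shared replicate numbers. Depth limits Pnpla3 most, with 3 to 9 counts in chow libraries, and the small groups limit the genotype comparisons.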
